A study of Mus musculus with 4 samples.

Results

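The complement system genes were followed in RNA-seq counts from the livers of wild-type (WT) mice and of Fto knockout (KO) mice, 2 libraries for each genotype. The labels describe C57BL/6 mice aged 23 weeks in both groups and give no treatment. They name neither the Fto allele nor the cells in which it was disrupted. The members were taken by symbol: a fixed list of 31 genes, each matched to 1 Ensembl identifier through GENCODE release M21, out of 37315 identifiers counted. By role, 4 belong to the classical pathway, 5 to the lectin pathway, 3 are C3 and alternative pathway genes, 6 encode terminal components, 7 encode plasma regulators, 4 encode regulators on the cell membrane and 2 encode receptors. The genotype comparison asks which of these transcripts differ in liver when the gene for Fto, an RNA demethylase, is disrupted.

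Complement is a cascade of plasma proteases that marks surfaces for uptake by phagocytes and can open pores in membranes. The classical pathway starts from C1 on bound antibody, the lectin pathway from mannose-binding lectins or ficolins on sugars, and the alternative pathway from C3 itself with factor B. All of them cleave C3 and then C5, after which C5b gathers C6, C7, C8 and C9 into the membrane attack complex. Hepatocytes make most of the plasma components, while macrophages make C1q, properdin and the receptors for the cleaved fragments C3a and C5a.

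The libraries held between 39549592 and 44689114 counts, and the members took between 1.66% and 2.41% of them. Fto was lower in KO, at 12.6 ± 0.697 counts-per-million (CPM) against 37.6 ± 5.16 CPM in WT (SD, n = 2 each), which checks the labels. The hepatocyte gene Alb stood at 64181 ± 8384 CPM in KO against 59163 ± 8015 CPM in WT. No 2 libraries agreed within sampling noise (chi-square per degree of freedom of at least 86.5), so each was used as 1 replicate. Whether each library is a different animal is not in the labels, so the p-values reflect only how these libraries vary, and that variation may be technical.

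All 31 members had reads in every library and passed the filter on low counts. The lowest was C5ar1 in WT replicate 1, with 7 reads. Levels are CPM after scaling of library sizes by the trimmed mean of M values (TMM), and a gene was called at a Benjamini-Hochberg adjusted p under 0.05 in edgeR's quasi-likelihood test over all 13836 tested genes. Of the 31 members 2 were called higher in KO, both of the terminal pathway, against 0.961% of all tested genes called higher. None was called lower by edgeR, against 0.947% of tested genes (1.91% were called in either direction). At an unadjusted p under 0.05, 9 members were higher and 1 was lower, against 6.53% and 6.48% of tested genes. DESeq2 called 4 members higher and 1 lower, against 1.86% of genes in each direction and 3.72% in both together. Other settings of edgeR gave 7 higher and 1 lower without the low-count filter (1.94% and 1.76% of genes), 4 and 0 with a length offset (1.64% and 1.60%), and 11 and 2 with the replicate number as a block (10.1% and 9.58%). The median log2 fold change was 0.23 over the members and 0.01 over the tested genes. Both KO libraries lay above both WT libraries for 14 members and below them for 4. Over all tested genes the same held for 21.6% and 20.4%.

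**Figure D1:**
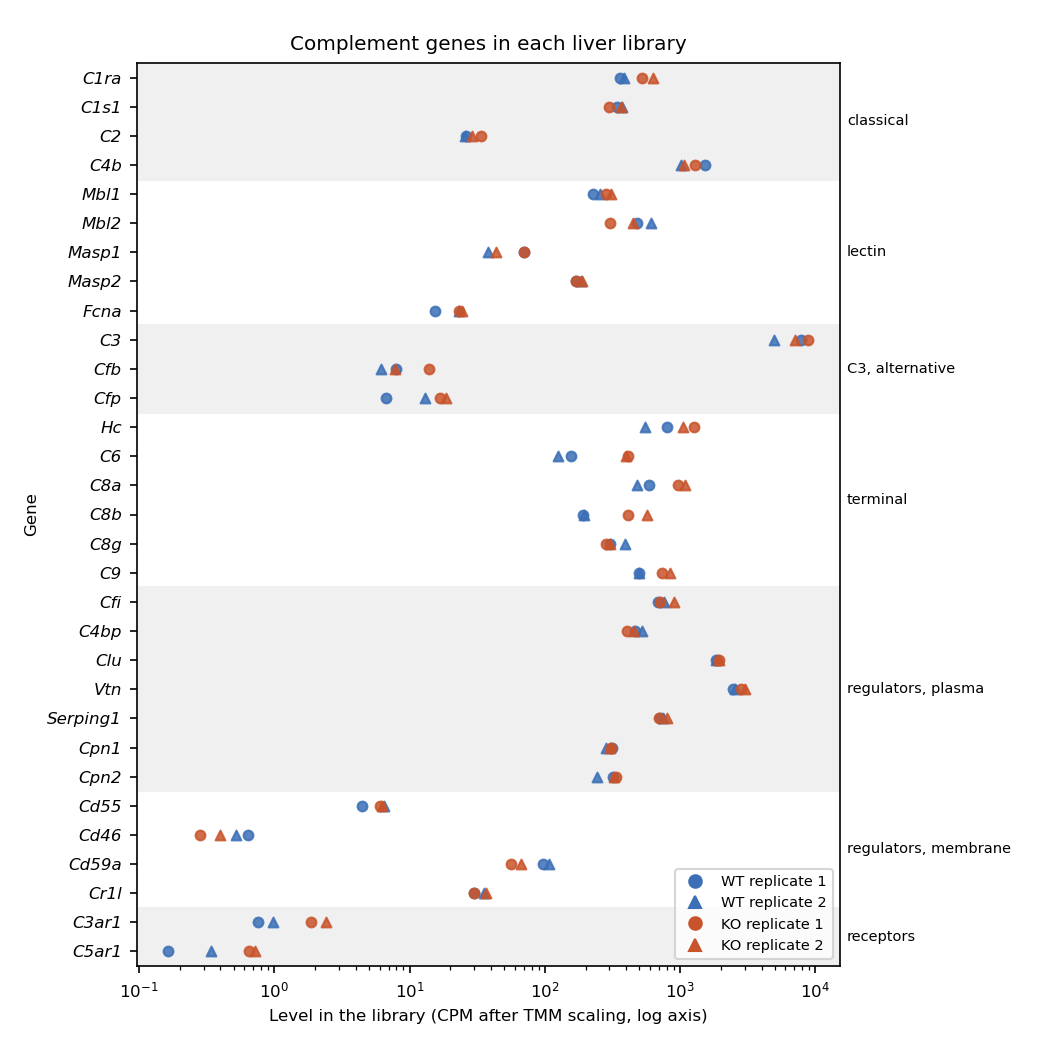
Level of each complement gene in each library, in CPM after TMM scaling on a log axis, grouped by role; circles are replicate 1, triangles replicate 2, blue WT and orange KO. The KO points of C6 (411 and 399 CPM) and C8b (409.8 and 572 CPM) stand to the right of their WT points, while those of Clu lie almost on top of each other.

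**Figure D2:**
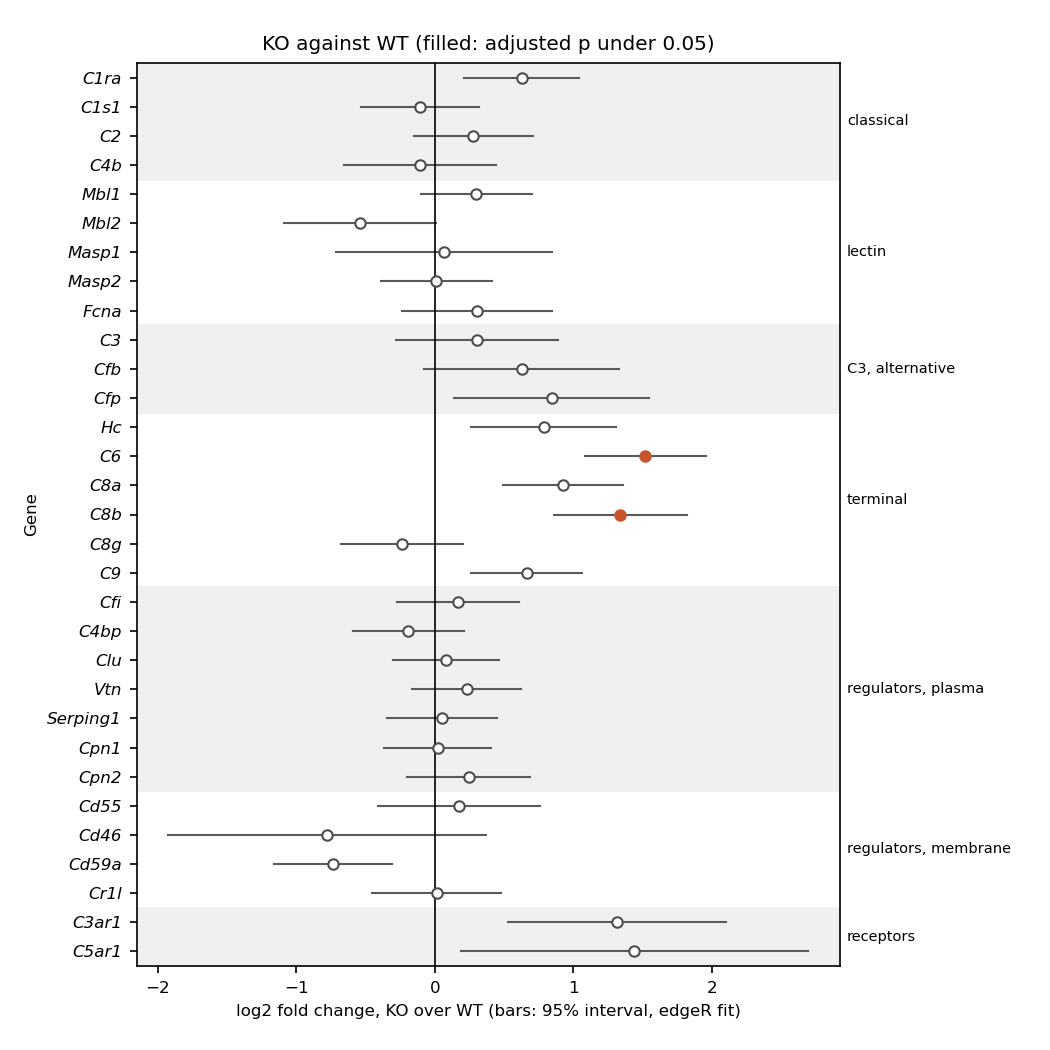
Log2 fold change of KO over WT for each gene, with the 95% interval of the edgeR fit, not adjusted for the number of genes; filled points passed an adjusted p of 0.05. The only filled points are C6 at 1.52 and C8b at 1.34.

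The terminal genes gave both calls. C6 rose 2.87-fold and C8b 2.53-fold in KO. Both KO libraries lay above both WT libraries for 5 of the 6 terminal genes, against 21.6% of all tested genes. The median log2 fold change of the 6 was 0.86, against 0.17 for the other 25 members. The exception was C8g.

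C6 encodes the first protein to join C5b. It lies on chromosome 15 at 4727175 to 4814967 (plus strand, mm10). Its level was 157 and 125 CPM in WT against 411 and 399 CPM in KO. Both KO values were far above the higher WT value, and the KO libraries lay closer together than the WT libraries. The log2 fold change was 1.52 (SE 0.188, adjusted p = 0.0109, edgeR quasi-likelihood test), and the gene was called under each of the 10 other settings tried, with 1.36 to 1.69.

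C8b encodes the beta chain of C8, the chain that docks C8 onto C5b, C6 and C7. The gene lies on chromosome 4 at 104766317 to 104804548 (plus strand). Its level was 191 and 196 CPM in WT and 409.8 and 572 CPM in KO. The WT libraries were nearly equal, and the KO libraries differed from each other but not enough to reach them. The log2 fold change was 1.34 (SE 0.208, adjusted p = 0.0227, edgeR), and it was called under each of the same 10 settings, with 1.07 to 1.56.

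C8a encodes the alpha chain, which inserts into the membrane. It was at 591 and 482 CPM in WT and 957 and 1082 CPM in KO, with no overlap. Its log2 fold change of 0.93 (SE 0.187) did not pass (adjusted p = 0.0573, edgeR), although 6 of the 10 other settings called it. C8a and C8b are neighbours that point toward each other, with 11130 bases between their ends. The third chain of the protein, a lipocalin, is encoded by C8g on chromosome 2. C8g was at 304 and 388 CPM in WT and 283 and 305 CPM in KO, values that overlap. Its log2 fold change was -0.24 with a 95% interval from -0.67 to 0.20, so a rise of the size fitted for C8a or C8b lay outside that interval.

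Ratios within a library do not depend on the scaling between libraries. Per kilobase of the principal transcript, C8a stood at 0.619 and 0.395 of C8g in WT and at 1.08 and 1.13 in KO. C8b stood at 0.323 and 0.260 of C8g in WT and at 0.744 and 0.963 in KO. The genotypes did not overlap in either ratio, but an exact permutation test of 2 libraries against 2 cannot give a two-sided p below 0.333, which is the value of both. The 3 chain transcripts were thus at more even levels in the KO libraries than in the WT libraries.

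Hc encodes C5, from which the anaphylatoxin C5a and the pore's first piece C5b are cut. It was at 796 and 549 CPM in WT and 1266 and 1053 CPM in KO. The WT libraries differed from each other by nearly as much as the higher of them differed from the lower KO library. The log2 fold change was 0.79 (95% interval 0.26 to 1.31) and was not called (adjusted p = 0.166, edgeR), although 5 of the 10 other settings called it, DESeq2 among them (adjusted p = 0.0444). C9 encodes the subunit that polymerises into the ring of the pore. It was at 497 and 499.65 CPM in WT and 733 and 849 CPM in KO, without overlap, and its log2 fold change of 0.67 (95% interval 0.27 to 1.07) was not called either (adjusted p = 0.124). C6 and C9 are on the same chromosome, with 1630359 bases between them. C7, the remaining terminal gene, lies between them and was almost silent in these livers, with 28 and 8 reads in KO against 11 and 8 in WT.

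**Figure D3:**
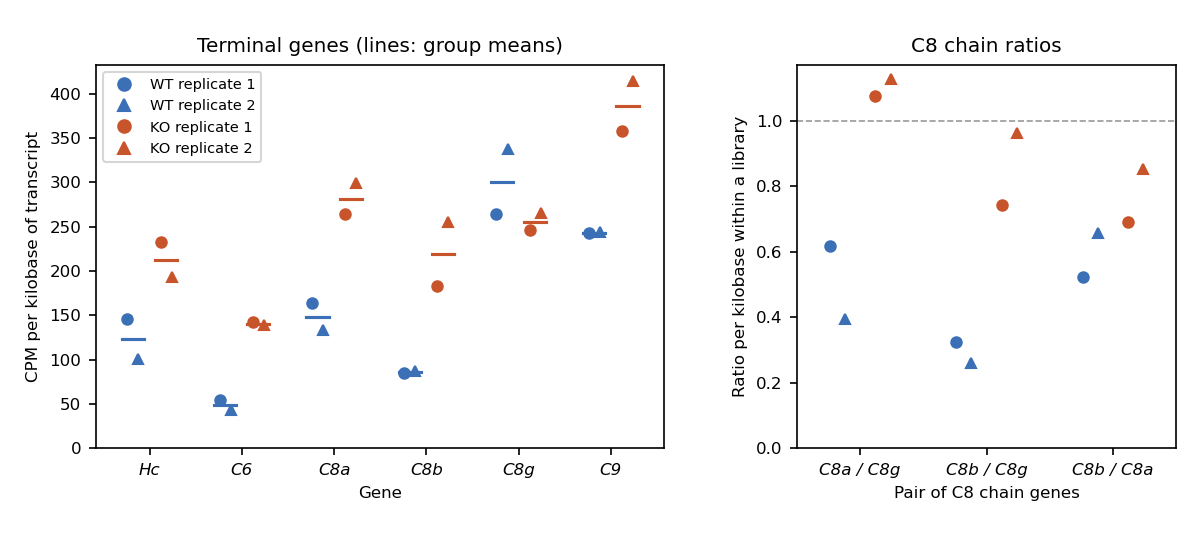
Left, level of each terminal gene in CPM per kilobase of transcript in each library, with lines at the group means; right, ratio between pairs of C8 chain genes within each library. On the left every KO point except those of C8g lies above the WT points, and on the right C8a over C8g goes from 0.619 and 0.395 in WT to 1.08 and 1.13 in KO.

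The 250 bases before the RefSeq start of C6 and of the 3 C8 chain genes are shown because C6 and C8b are the called members, and C8a and C8g encode the other chains of the protein C8b belongs to. They are RefSeq promoter windows on GRCm38.p6, the assembly of mm10, written 5′ to 3′ on the strand of the gene. The RefSeq start of C6 lies downstream of the GENCODE start given above, so the last bases of that window fall inside the gene as placed there. Capitals mark matches to 6 searched motifs. The C6 window is chr15:4726960-4727209 (plus), that of C8b chr4:104766067-104766316 (plus), that of C8a chr4:104876399-104876648 (minus) and that of C8g chr2:25501720-25501969 (minus).
C6: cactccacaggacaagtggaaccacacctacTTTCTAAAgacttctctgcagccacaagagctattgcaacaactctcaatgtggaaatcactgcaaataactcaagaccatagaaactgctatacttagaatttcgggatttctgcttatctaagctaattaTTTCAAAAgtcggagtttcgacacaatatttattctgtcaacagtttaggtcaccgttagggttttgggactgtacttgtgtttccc
C8b: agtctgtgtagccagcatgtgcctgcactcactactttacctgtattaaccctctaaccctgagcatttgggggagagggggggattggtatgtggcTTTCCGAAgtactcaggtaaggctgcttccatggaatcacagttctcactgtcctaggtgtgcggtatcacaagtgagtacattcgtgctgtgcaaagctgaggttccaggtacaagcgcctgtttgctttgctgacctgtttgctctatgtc
C8a: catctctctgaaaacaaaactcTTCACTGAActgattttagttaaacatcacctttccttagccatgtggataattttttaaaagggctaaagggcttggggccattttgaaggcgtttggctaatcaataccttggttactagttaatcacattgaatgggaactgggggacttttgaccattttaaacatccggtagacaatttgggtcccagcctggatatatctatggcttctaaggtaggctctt
C8g: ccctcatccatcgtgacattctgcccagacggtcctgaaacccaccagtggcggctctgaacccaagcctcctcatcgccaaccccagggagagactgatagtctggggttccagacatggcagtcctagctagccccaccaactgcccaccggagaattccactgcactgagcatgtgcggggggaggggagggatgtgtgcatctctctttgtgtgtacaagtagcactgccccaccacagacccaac

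The motifs were searched on both strands: TTCNNNGAA (STAT5), TTNCNNAA (C/EBP), CAAAGTCCA (HNF4), and by name the HNF1, interferon response and NF-kB motifs. The C6 window held 2 C/EBP matches and that of C8b 1, the C8a window held 1 STAT5 match, and that of C8g held none. No matches overlapped in these windows. Windows were at hand for 24 of the 31 members, 26 in all. Of these, 11 held the C/EBP letters against 36.9% of 32851 windows of all genes, and 3 held the STAT5 letters (C8a, Cpn2 and Masp2) against 7.02%. The downstream end of the RefSeq window matched a GENCODE transcript of its gene for 24 of the 26 windows, but not for Cpn2 or Masp2. The interferon response motif stood before Cd59a (2.98% of all windows) and the HNF1 motif before Hc (0.0609%). The HNF4 and NF-kB motifs (0.384% and 0.356% of all windows) were in no member's window. These are matches of letters, not sites shown to be bound.

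C3 and the alternative pathway genes all had positive log2 fold changes, with a median of 0.63. None was called by the same edgeR test or by DESeq2, and 1 (Cfp) had an unadjusted p under 0.05. C3 is the central protein that all pathways cleave, and it had the most reads of any member. It was at 7899 and 4983 CPM in WT and 8828 and 7078 CPM in KO, so the genotypes overlapped. Its log2 fold change of 0.30 (95% interval -0.28 to 0.89) rested on the second WT library, without which it was -0.00046. Cfb encodes factor B, the protease of the alternative convertase. It was at 7.90 and 6.17 CPM in WT and 13.95 and 7.80 CPM in KO, and only KO replicate 1 stood above both WT libraries. Without KO replicate 2 Cfb was called (adjusted p = 0.0464, edgeR). Cfp encodes properdin, which stabilises that convertase and is made by white blood cells. It was at 6.70 and 12.9 CPM in WT and 16.7 and 18.5 CPM in KO, so the genotypes did not overlap. Its log2 fold change was 0.84 (SE 0.302, adjusted p = 0.282, edgeR), and it was called without WT replicate 2, at a log2 fold change of 1.38 (adjusted p = 7.94e-04).

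Among the 4 classical pathway genes none was called by the same edgeR test or by DESeq2, 1 (C1ra) had an unadjusted p under 0.05, and the median log2 fold change was 0.09. C1ra encodes a protease of the C1 complex. It was at 361 and 382 CPM in WT and 521 and 626 CPM in KO, without overlap (log2 fold change 0.63, SE 0.178, adjusted p = 0.163, edgeR). C1s1 encodes the partner protease that C1r activates, and its values of 343 and 370 CPM in WT and 296 and 367 CPM in KO overlapped. The ratio of C1ra to C1s1 per kilobase was 1.04 and 1.02 in WT and 1.74 and 1.69 in KO, again the full separation for which 0.333 is the smallest exact permutation p. C1ra has a near-copy, C1rb, that is 97.9% identical over its transcript and has no row of its own in the counts. Of the 101-base windows of the C1ra transcript 35.7% occur unchanged in another gene, so its level is uncertain. C1s1 shares 19.8% of its windows with other genes.

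C4b encodes C4, which with C2 forms the C3 convertase of the classical and lectin pathways. Its level was 1532 and 1009.9 CPM in WT and 1299.7 and 1064 CPM in KO, with the KO values between the WT values (log2 fold change -0.10, 95% interval -0.65 to 0.44). C2 was at 26.0 and 25.7 CPM in WT and 34.0 and 28.7 CPM in KO (log2 fold change 0.28, adjusted p = 0.615, edgeR). C2 and Cfb follow each other on chromosome 17 with 85 bases between them, and the annotated gene Gm20547 covers exons of both. Its transcripts hold 53.1% of the 101-base windows of C2 and 81.5% of those of Cfb. Gm20547 itself had 0 reads in the 4 libraries together. Counters of the kind used leave out reads that fall in more than 1 gene, so the levels of C2 and Cfb are uncertain. The sources used here do not give the options.

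The near-copy of C4b gave a different value. C4a is known as the gene of the sex-limited protein Slp, whose level differs between the sexes in some mouse strains. The labels give no sex for these mice. The C4a transcript used here has 0 coding bases in GENCODE M21, so its reads are described as RNA only. C4a lies 65209 bases away from C4b at 34809092 to 34823464 of chromosome 17 (minus strand), and their transcripts are 95.9% identical. It was the only called gene of the further complement genes described below. C4a had 1724 and 1698 reads in WT against 6345 and 4133 in KO, or 42.6 ± 2.80 CPM against 120.3 ± 24.02 CPM (SD, n = 2 each). It rose 2.82-fold (log2 fold change 1.496, SE 0.205, adjusted p = 0.0146, edgeR). The ratio of C4b to C4a per kilobase was 37.6 and 22.6 in WT and 9.46 and 10.3 in KO. Only 16.3% of the 101-base windows of C4b also occur in C4a, so most read positions separate them, but the levels of both remain uncertain.

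No lectin pathway gene was called by the edgeR test described above or by DESeq2, 0 of them had an unadjusted p under 0.05, and the median log2 fold change of the 5 was 0.07. Mbl1 and Mbl2 encode the mannose-binding lectins A and C that recognise sugars on microbes. Mbl1 was at 225 and 257 CPM in WT and 285 and 309 CPM in KO, and Mbl2 at 484 and 610.3 CPM in WT and 303 and 451 CPM in KO. Neither gene overlapped between genotypes, and they lay on opposite sides: the log2 fold change was 0.30 (95% interval -0.10 to 0.70) for Mbl1 and -0.54 (95% interval -1.08 to 0.01) for Mbl2. Their ratio per kilobase was 0.325 and 0.293 in WT and 0.655 and 0.478 in KO. Masp2 encodes the lectin pathway protease that cleaves C4 and C2. Its values of 169 and 185 CPM in WT and 169 and 187 CPM in KO gave a log2 fold change of 0.01 with a 95% interval from -0.39 to 0.41. Of its 101-base windows 55.5% lie also in transcripts of Tardbp, which runs over its end from the other strand. Masp1 encodes the protease that activates MASP-2. At 70.4 and 37.7 CPM in WT and 70.1 and 43.2 CPM in KO it differed between replicates more than between genotypes. Fcna encodes ficolin A, which is made by macrophages, and was at 15.4 and 23.3 CPM in WT and 23.2 and 24.6 CPM in KO.

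The 7 plasma regulators lay close to 0, with log2 fold changes from -0.19 to 0.24 and a median of 0.08. None was called by edgeR or DESeq2, and 0 had an unadjusted p under 0.05. Clu encodes clusterin, which binds the forming pore and keeps it out of membranes. Its libraries were at 1843 and 1838 CPM in WT and 1938 and 1948 CPM in KO. Replicates agreed so closely that the genotypes did not overlap at a log2 fold change of 0.08 (95% interval -0.30 to 0.46). Vtn encodes vitronectin, which also blocks pore insertion, and was at 2454 and 2562 CPM in WT and 2839 and 3043 CPM in KO (log2 fold change 0.23, 95% interval -0.16 to 0.62). Serping1 encodes the C1 inhibitor, which inactivates C1r, C1s and the MASPs. It was at 712 and 744 CPM in WT and 702 and 807 CPM in KO (0.05, 95% interval -0.35 to 0.45).

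Cfi encodes factor I, the protease that cuts C3b and C4b, and was at 684 and 754 CPM in WT and 709 and 904 CPM in KO. C4bp encodes the alpha chain of C4b-binding protein, a cofactor of factor I. It was at 466 and 521 CPM in WT and 407 and 458 CPM in KO, the only plasma regulator with both KO libraries below both WT libraries (log2 fold change -0.19, 95% interval -0.59 to 0.21). Cpn1 and Cpn2 encode the subunits of carboxypeptidase N, which trims C3a and C5a. Cpn1 was at 315 and 285 CPM in WT and 307 and 302 CPM in KO, and Cpn2 at 317 and 244 CPM in WT and 337 and 327 CPM in KO. Their log2 fold changes were 0.02 and 0.24. The intervals of all 7 regulators excluded a doubling and a halving, which on the log2 scale lie at 1 and -1.

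Of the 4 membrane regulators, 2 had both KO libraries below both WT libraries: Cd59a, and Cd46 at the low counts given below. Over all tested genes the same held for 20.4%. Only Cd59a had an unadjusted p under 0.05 with edgeR. Cd59a encodes CD59, which stops C9 from polymerising on the body's own cells, and lies on chromosome 2 at 104095801 to 104115354 (plus strand). Its level was 97.2 and 108 CPM in WT and 56.5 and 66.8 CPM in KO. Both KO libraries lay well below both WT libraries. The log2 fold change was -0.73 (SE 0.184), or 60.1% of WT, and did not pass with edgeR (adjusted p = 0.114), while DESeq2 called it (adjusted p = 0.0313). Its neighbour and paralog Cd59b, which shares 0.234% of 101-base windows with it, had a log2 fold change of -0.84 (adjusted p = 0.158, edgeR) with 4.05 ± 0.740 CPM in KO against 7.24 ± 0.201 CPM in WT (SD, n = 2 each). Set beside the pore protein it acts on, Cd59a per kilobase was 0.222 and 0.245 of C9 in WT and 0.0875 and 0.0893 in KO.

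Cr1l encodes Crry, the rodent membrane regulator of C3 convertases. It was at 30.1 and 35.8 CPM in WT and 29.7 and 36.8 CPM in KO, with a log2 fold change of 0.01 (95% interval -0.45 to 0.48). Cd55 encodes the decay-accelerating factor and was at 4.46 and 6.44 CPM in WT and 6.01 and 6.27 CPM in KO. Of their 101-base windows Cr1l shares 12.8% and Cd55 6.91% with a near-copy. Cd46, a cofactor for factor I that rodents make mainly in the testis, had 27 and 20 reads in WT against 13 and 16 in KO. Its log2 fold change was -0.78 and was not called (adjusted p = 0.596, edgeR). The 95% interval of Cd46, from -1.92 to 0.37, is wider than that of any other member except C5ar1. It holds both a halving and no change, so at this depth the 2 were not told apart. Of the 101-base windows of Cd46, 15.8% also occur in A330023F24Rik, a gene on the other strand without a row in the counts. Mir29b-2 and Mir29c overlap exons of Cd46 too, with 47 and 88 reads over all libraries. The level of Cd46 is thus uncertain as well.

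The receptors for the anaphylatoxins had log2 fold changes close to those of the called members, at low counts. Neither was called by the edgeR test described above or by DESeq2, and both had an unadjusted p under 0.05. Without the filter on low counts edgeR called C3ar1 (adjusted p = 0.0234). C3ar1, the receptor for C3a, had 32 and 37 reads in WT against 87 and 97 in KO. That is 0.863 ± 0.154 CPM against 2.15 ± 0.383 CPM (SD, n = 2 each), and the log2 fold change was 1.32 (SE 0.338, adjusted p = 0.122, edgeR). C5ar1, the receptor for C5a, had 7 and 13 reads in WT against 30 and 29 in KO. Its log2 fold change was 1.44 (SE 0.540, adjusted p = 0.308, edgeR). Neither receptor overlapped between genotypes.

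The list of markers of Kupffer cells, which are the resident liver macrophages, was read beside these genes. The summed level of the 14 markers was 256 and 321 CPM in WT and 426 and 409 CPM in KO. Both KO libraries lay above both WT libraries for 12 of the 14, against 21.6% of tested genes. Of the list 2 were called higher, Marco (log2 fold change 1.66, adjusted p = 0.0155, edgeR) and Csf1r (0.97, adjusted p = 0.0478), against 0.961% of tested genes. The median log2 fold change of the list was 0.87. None of the 14 was at 0 in any group, Clec4f, a lectin of Kupffer cells, being at 73.0 ± 1.29 CPM in KO against 44.1 ± 11.8 CPM in WT (SD, n = 2 each). In tissue RNA, more cells of a type and more RNA per cell cannot be told apart. The part of the Kupffer markers in the values of C3ar1, C5ar1, Cfp and Fcna was not tested. The genes of the 3 chains of C1q, the recognition part of C1, which macrophages also make, had log2 fold changes of 0.81 (C1qa), 0.81 (C1qb) and 0.79 (C1qc). None of them was called by edgeR with the filter on low counts and all libraries (adjusted p from 0.149 to 0.201), while DESeq2 called C1qa. In WT, replicate 2 was above replicate 1 for the receptors, Cfp, Fcna, the C1q genes and the marker sum. In KO the same held for these genes, but the marker sum was lower in replicate 2. The largest part of that sum in each library was Slc40a1, at 121 and 116 CPM in WT and 130 and 89.9 CPM in KO. Slc40a1 was the only marker of the 14 with a negative log2 fold change (-0.11), so the sum need not describe the other markers. In KO, Adgre1, Csf1r, Timd4 and Cd68 were also lower in replicate 2 than in replicate 1, and the remaining markers were higher.

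**Figure D4:**
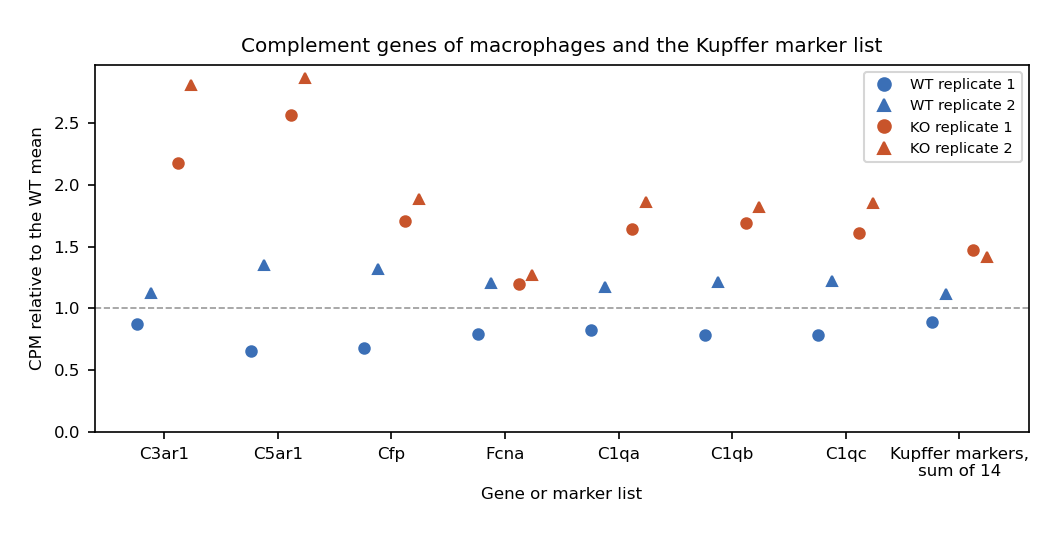
CPM of complement genes known from macrophages and of the summed list of 14 Kupffer markers in each library, each divided by its own WT mean. The marker sum is at 1.48 and 1.41 in KO, the C1q genes between 1.61 and 1.86, C3ar1 at 2.18 and 2.81, and Fcna at 1.20 and 1.27, the latter overlapping WT replicate 2 at 1.20. The largest part of the sum is Slc40a1, the only marker of the 14 with a negative log2 fold change.

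Markers of other cell types were read in the same way. None was called among 11 hepatocyte markers (median log2 fold change 0.12), 8 endothelial (0.05), 8 stellate cell (-0.31), 5 cholangiocyte (0.08), 7 adipocyte (-0.27), 6 lymphocyte (-0.01) and 5 neutrophil markers tested (0.36) with edgeR. An unadjusted p under 0.05 was reached by 2 hepatocyte and 1 lymphocyte markers, all higher in KO. It was also reached by 1 endothelial, 2 stellate cell and 1 adipocyte markers, all lower. Of the neutrophil markers 1 was higher and 1 lower, and 0 cholangiocyte markers reached it. Over all tested genes 6.53% were higher and 6.48% lower at that p. The neutrophil marker Ly6g had 0 reads in all libraries, and the summed neutrophil list was at most 4.13 CPM. Neutrophils also carry C5ar1. Of 18 acute phase genes 1 was called higher, Socs3, an inhibitor of cytokine signalling (log2 fold change 1.40, adjusted p = 0.0352, edgeR), and the median was 0.42. At an unadjusted p under 0.05 (edgeR), 7 of the 18 were higher and 0 lower, against 6.53% and 6.48% of tested genes. Both KO libraries lay above both WT libraries for 12 of the 18, against 21.6% of tested genes. The summed acute phase list was at 21519 and 21664 CPM in WT against 25187 and 32599.6 CPM in KO, and its part in the complement values was not tested. Csf1r, Marco and Socs3 are named because they are the called ones.

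A further 32 complement genes that are not members were read from the same fit; 31 had an identifier in the counts and 25 were tested. Of these 1 was called higher (C4a) and none lower with edgeR, against 0.961% and 0.947% of tested genes. At an unadjusted p under 0.05, 9 were higher and 1 lower, against 6.53% and 6.48%. DESeq2 called 3, all higher, against 1.86% of genes in each direction. The median log2 fold change of the 25 was 0.31. Vsig4 is also in the Kupffer list, and Crp and Apcs are also in the acute phase list. Among those with the highest levels were Crp, the gene of C-reactive protein, with a log2 fold change of 0.54, and the carboxypeptidase gene Cpb2 with 0.03, and neither was called. Cfd, which encodes factor D (adipsin) and is best known from fat cells, had 139 and 245 reads in WT against 20 and 127 in KO. It was higher in replicate 2 of each genotype, and so was the summed adipocyte list, at 55.3 and 102 CPM in WT and 24.2 and 48.3 CPM in KO. The largest parts of that sum were Lipe and Cidec, the latter at 27.2 and 58.3 CPM in WT and 5.80 and 13.5 CPM in KO. Adipoq was at 0.0236 and 1.84 CPM in WT and 0 and 1.77 CPM in KO. It thus differed between replicates and hardly between genotypes. Cfd is itself 1 of the 8 genes of the adipocyte list, and the part of that list in the Cfd values was not tested. Fcnb and Cd55b had 0 reads in all libraries.

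Levels between members were compared per kilobase of principal transcript. The top ranks in WT were Vtn, C3, Clu and Mbl2. Vtn, at 1407 and 1469 CPM per kilobase, lay inside the spread of C3, at 1538 and 970.2, so their order is not settled. Clu followed at 1018 and 1016, within the spread of C3 as well, and Mbl2 at 444 and 560.4. Among the terminal genes in WT the order was C8g, C9, C8a, Hc, C8b and C6, with overlap between C8a and Hc, and C6 at 54.6 and 43.5 CPM per kilobase. In KO it was C9, C8a, C8g, C8b, Hc and C6. C8b and Hc overlapped there (183 and 255 against 233 and 193), as did C8a and C8g (265 and 299 against 246 and 265.1) and also C8g and C8b, so the order of these neighbours is not settled. C6 was thus the scarcest terminal transcript of the 6 in both genotypes, at 143 and 139 CPM per kilobase in KO. At the low end in both genotypes stood Cd46, C5ar1 and C3ar1.

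Members with long transcripts differed between replicates. In WT the log2 ratio of replicate 2 over replicate 1 ran from -0.90 for Masp1 to 1.05 for C5ar1. Across the 31 members it was correlated with the log2 length of the transcript at r = -0.64 in WT and -0.37 in KO, where the points share libraries and genes are not independent replicates. Of the 7 members longer than 4000 bases, 5 were lower in replicate 2 in both genotypes, C3, C4b, Hc, Masp1 and Cpn2. The KO over WT log2 fold change was correlated with length at r = 0.13. With an offset for length in each library, C8a and C9 were called besides C6 and C8b. That offset took the bases of all exons of a gene as its length, not the principal transcript.

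**Figure D5:**
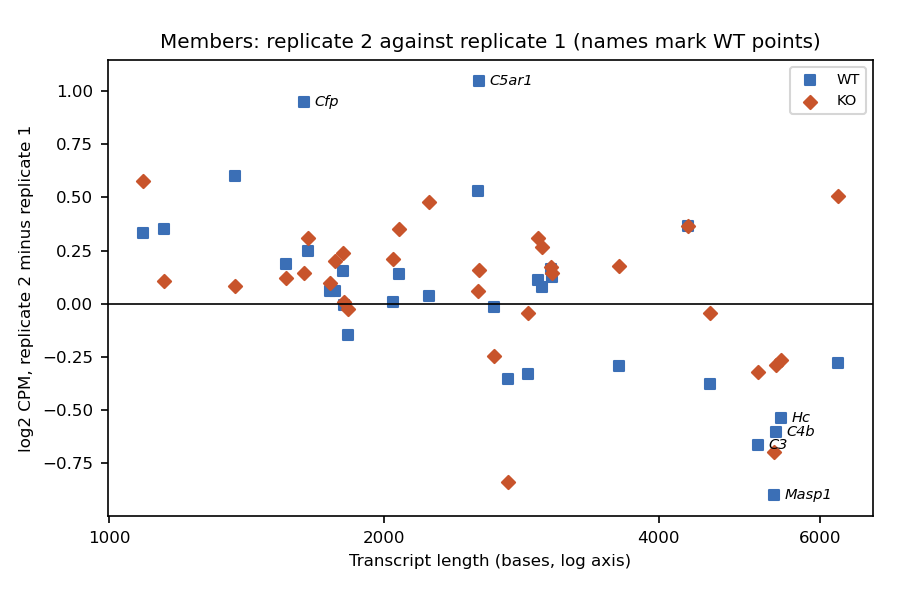
Log2 CPM of replicate 2 minus replicate 1 for each member against the length of its principal transcript in bases (log axis), WT squares and KO diamonds; names stand beside WT points. The long transcripts of Masp1, C3, C4b and Hc lie below 0 in both genotypes, with Masp1 at -0.90 in WT and -0.70 in KO.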

How the data were processed

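Polyadenylated liver RNA was sequenced as paired reads of 101 bases from TruSeq v2 libraries, per the labels' protocols; that kit does not mark strand. The deposited files hold raw whole-number read counts per Ensembl gene. Per the submitters' processing notes TopHat2 2.1.1, HTSeq 0.6.0 and the build mm10 were used; the sources used here name no annotation release and no counting options. GENCODE M21 gave symbols for 35533 of 37315 identifiers.

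From the deposited counts, KO was compared with WT with edgeR 4.0.16 in R 4.3.3: filterByExpr (minimum count 10, minimum total 15), TMM, robust quasi-likelihood F test, two-sided, genotype as the only term, Benjamini-Hochberg adjustment over all tested genes. SE is the absolute log2 fold change over the square root of F. DESeq2 1.42.0 and the other settings are given in the closing section. The script was tested on simulated data. Per-kilobase levels divide CPM by the length of the APPRIS principal transcript, and identity between near-copies is over these transcripts. Every member is named; of further complement genes the called one and those among the 4 most abundant that can be given were named (an item is not reported here), others after their values were seen. Members, lists and tests were chosen with earlier results of these data known. No p-value is given for a list.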

Additional observations from a re-analysis of the deposited data

How the results depend on the processing

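The edgeR counts of calls moved with the settings, while C6, C8b and, outside the members, C4a were called under each of the 10 alternatives. Scaling by RLE factors or by library size alone left 2 members called higher and 0 lower. Without the filter on low counts 7 members were called higher and 1 lower, with 829 genes called in all and 8 further complement genes; with DESeq2 these were 4, 1, 559 and 3. A length offset gave 4 members higher, 443 genes and 4 further complement genes. The replicate numbers do not name a shared animal or batch. With a replicate block 11 members were called higher and 2 lower, of 2729 genes, with 13 further complement genes, and deviations from the genotype means correlated at r = 0.43 between equal numbers across genes. Leaving out 1 library gave 3 to 4 members called higher, 0 lower, 460 to 633 genes and 2 to 6 further complement genes, against 264 genes with all libraries. In these fits 1 genotype has a single library, which is assumed to vary like the other genotype's pair. The added members were C8a and Hc without WT replicate 1, Cfp without WT replicate 2, C8a without KO replicate 1, and Cfb and Hc without KO replicate 2. DESeq2 added C8a and Hc, no filter these and C3ar1, C9 and Cfp, and the length offset C8a and C9; the block added C1ra, C3, C3ar1, C8a, C9, Cfb, Cfp, Hc and Mbl1. Called lower were Cd59a with DESeq2, without the filter and with the block, and Mbl2 with the block. The cause of these shifts was not tested. Neither C6 nor C8b changed sign under any alternative. Members near 0 did: with 1 library left out, the log2 fold change ranged from -0.28 to 0.0433 for C1s1, -0.38 to 0.23 for C4b, -0.32 to 0.59 for Masp1, -0.0690 to 0.0858 for Masp2, -0.00046 to 0.67 for C3, -0.0279 to 0.33 for Cfi, -0.0598 to 0.15 for Serping1, -0.0595 to 0.0937 for Cpn1, -0.0681 to 0.45 for Cd55 and -0.16 to 0.16 for Cr1l, which was -0.0429 with the length offset. The low counts of Cd46 and C5ar1 limit their precision.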
